A study of Mus musculus with 34 samples.

Results

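The proteasome is the large protease that degrades proteins tagged with ubiquitin. Its barrel-shaped core is built from alpha subunits (Psma genes), which form the outer rings and the gate, and beta subunits (Psmb genes), which form the inner rings and carry the peptidase sites. The regulatory particle caps the core and holds a ring of ATPases (Psmc genes), which unfold the substrate, and non-ATPase subunits (Psmd genes), which bind and remove ubiquitin. In immune cells and under interferon the catalytic beta subunits Psmb5, Psmb6 and Psmb7 are replaced by the immune forms Psmb8, Psmb9 and Psmb10, which favour peptides for antigen presentation. In skeletal muscle the ubiquitin-proteasome route is known for the breakdown of contractile protein during wasting.

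All probe sets with 1 annotated symbol of the form Psma to Psmg followed by a number were taken, which gave 85 probe sets of 48 genes. Psmc3ip and Psme3ip1 matched the pattern but are not proteasome genes, which left 46 genes of 12394 genes in all, each read from its brightest probe set over the 34 arrays. They were 18 core genes (8 alpha, 7 standard beta and 3 immune beta), 20 regulatory genes (6 ATPases, 11 non-ATPase subunits and the assembly chaperones Psmd5, Psmd9 and Psmd10) and 8 others (the activators Psme1, Psme3 and Psme4, the inhibitor Psmf1 and the core assembly chaperones Psmg1 to Psmg4). The activator Psme2 was not a member, because its probe set carries 2 symbols. Psma8, an alpha subunit known from testis, was too dim to be tested in any comparison (11.6 to 189.7 intensity units over the 34 arrays). The other 45 genes were tested in each mutant comparison: 17 core, 20 regulatory and 8 others.

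The series profiled mice that lack or overexpress muscle glycogen synthase, the enzyme that builds glycogen, on Affymetrix arrays of 22690 probe sets. Knockout (KO) mice at 3 months of age were compared with wild-type (WT) mice in anterior tibialis (4 KO and 4 WT arrays), medial gastrocnemius (3 and 5) and liver (4 and 4), and mice labelled GSL30, described as overexpressing the synthase, were compared with WT mice at 8 months in medial gastrocnemius (5 and 5). The tibialis labels give the strain as C57BL6/129SV. The labels name no promoter for the transgene. They also leave unsaid whether the arrays of a group come from different animals, so the p-values reflect only how much these samples vary. Values are intensities on the linear scale as deposited, and differences are mutant minus WT on the log2(value + 50) scale. A gene passed where its adjusted p, from a limma fit over 13576 probe sets, was under 0.05.

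Gys1, the muscle glycogen synthase gene, lay between 34.2 and 72.5 in KO tibialis against 8183.7 to 9958.2 in WT, between 58.1 and 165 in KO gastrocnemius against 3954.7 to 6377.6, and between 7895.5 and 10404.4 in GSL30 against 5840 to 7184.8. In liver it was at 42.2 to 72.2 in WT and 18.6 to 60 in KO arrays. Hepatocyte genes (11 of 12 listed had a probe set) were present in the gastrocnemius arrays of 3 months, at a mean of 11.79 to 15.69 on the log2 scale in WT and 11.72 to 13.76 in KO arrays, against 15.5 to 15.8 in liver arrays and 7.54 to 8.03 in tibialis arrays. In the gastrocnemius of 8 months this mean was 9.30 to 11.05 in WT and 8.12 to 9.14 in GSL30 arrays. The arrays called high in hepatocyte level below are WT arrays 1, 2 and 4 and KO array 1 of 3 months and WT arrays 2 and 5 of 8 months. All samples are whole tissues, in which fewer cells of a type and less RNA per cell cannot be told apart.

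The stretches before the start sites of 6 members are shown because the comparisons below turn on these genes: Psmd4 as the member that passed in GSL30 muscle, Psmb5 and Psmb6 as standard catalytic subunits, Psmb8 and Psmb9 as immune forms, and Psmd8 as the member with the largest difference in KO gastrocnemius. Each is the 250 bases upstream, 5′ to 3′ on the strand of the gene, from RefSeq on GRCm38.p6. They lie at chr3:95042615-95042864 (Psmd4, minus strand), chr14:54617996-54618245 (Psmb5, minus), chr11:70525107-70525356 (Psmb6, plus), chr17:34197945-34198194 (Psmb8, plus), chr17:34187331-34187580 (Psmb9, minus) and chr7:29180674-29180923 (Psmd8, minus). Capitals mark matches on either strand to 4 motifs: CCAAT, the CCAAT box; TGACNNNGC, the antioxidant response element; the interferon-stimulated element, taken as TTTC, any 2 bases and TTTC; and TTCNNNGAA, the gamma-activated element.
Psmd4: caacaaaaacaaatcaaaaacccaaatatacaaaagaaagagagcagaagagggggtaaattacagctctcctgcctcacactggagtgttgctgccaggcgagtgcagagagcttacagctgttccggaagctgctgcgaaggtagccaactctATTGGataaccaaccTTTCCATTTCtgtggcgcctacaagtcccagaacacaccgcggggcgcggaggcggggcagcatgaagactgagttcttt
Psmb5: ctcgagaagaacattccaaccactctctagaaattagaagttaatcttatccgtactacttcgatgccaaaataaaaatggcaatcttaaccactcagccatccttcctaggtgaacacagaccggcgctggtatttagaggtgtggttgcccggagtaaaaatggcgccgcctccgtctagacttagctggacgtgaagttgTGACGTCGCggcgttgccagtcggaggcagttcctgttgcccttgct
Psmb6: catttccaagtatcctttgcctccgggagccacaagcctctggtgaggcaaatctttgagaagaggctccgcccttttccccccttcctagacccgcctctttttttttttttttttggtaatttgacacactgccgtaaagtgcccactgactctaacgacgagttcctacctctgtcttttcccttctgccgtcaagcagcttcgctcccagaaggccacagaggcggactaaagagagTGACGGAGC
Psmb8: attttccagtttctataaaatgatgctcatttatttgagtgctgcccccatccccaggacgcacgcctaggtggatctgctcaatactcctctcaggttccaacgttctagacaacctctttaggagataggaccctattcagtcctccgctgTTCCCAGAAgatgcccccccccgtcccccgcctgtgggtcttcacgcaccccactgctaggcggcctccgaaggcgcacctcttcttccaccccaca
Psmb9: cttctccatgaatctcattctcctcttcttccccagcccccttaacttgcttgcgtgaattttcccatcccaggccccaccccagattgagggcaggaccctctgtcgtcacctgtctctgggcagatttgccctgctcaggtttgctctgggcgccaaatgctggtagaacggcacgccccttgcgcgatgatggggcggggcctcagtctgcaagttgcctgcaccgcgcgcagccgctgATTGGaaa
Psmd8: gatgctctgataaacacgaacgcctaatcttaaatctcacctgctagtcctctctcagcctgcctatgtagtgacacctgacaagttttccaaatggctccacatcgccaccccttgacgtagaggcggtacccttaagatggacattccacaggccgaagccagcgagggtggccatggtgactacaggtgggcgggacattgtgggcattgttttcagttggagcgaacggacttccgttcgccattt

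Both standard subunits held 1 match to TGACNNNGC, as TGACGTCGC in Psmb5 and TGACGGAGC in Psmb6, and the immune form Psmb8 held 1 match to TTCNNNGAA. Psmd4 held CCAAT, read here as ATTGG, and the interferon-stimulated element, Psmb9 held ATTGG, and the Psmd8 window held none of the 4 letter patterns. Windows were found for 38 of the 46 members, and not for Psma8, Psmb1, Psmb2, Psmb7, Psmc3, Psmd3, Psmd7 and Psmg2. Counted by gene, with any window of a gene, CCAAT was found for 13 of the 38 members (34.2%) and for 37.5% of the 27025 genes of the table. TGACNNNGC was found for 5 members (13.2%) against 11.5% of genes, the interferon-stimulated element for 3 (7.89%) against 3.46%, and TTCNNNGAA for 2 (5.26%) against 8.13%. Counted by window, CCAAT was in 32.5% of the 40 windows of members and in 33.8% of all 32851 windows. By part, CCAAT was held by 7 of the 14 core genes with a window, 5 of 17 regulatory genes and 1 of 7 others. These are letter matches and describe the windows only.

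In GSL30 gastrocnemius, the non-ATPase subunit Psmd4 was the only member that passed, and 38 of the 45 tested members had a log2 difference above 0. One in 45 compares with 4.31% of all tested probe sets that passed in either direction, 2.11% of them higher and 2.2% lower. A difference above 0 was found for 53.5% of all probe sets, for 13 of 17 core members and for 20 of 20 regulatory members. The median difference was 0.21 for the regulatory members, 0.09 for the core members and 0.03 for all probe sets. Within the regulatory particle the median was 0.33 for the 11 non-ATPase subunits, 0.17 for the 6 ATPases and 0.13 for the 3 chaperones. These values come from the brightest probe set of each gene. With the next brightest probe set the regulatory median was 0.12. Psmc4 (-0.29) and Psmd6 (-0.07) were then below 0, and the other tested regulatory genes above 0.

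Psmd4, the ubiquitin receptor that captures tagged substrates at the proteasome, read 8365.4, 6363.2, 7384.8, 7311.8 and 8502.1 in the 5 WT arrays. In the 5 GSL30 arrays it read 9734.4, 11112.7, 10631.9, 10498.2 and 11722.4. Every GSL30 array was above every WT array. The means were 7585 ± 874 (SD, n = 5) and 10740 ± 739 (SD, n = 5), and Psmd4 rose by 0.50 on the log2 scale (SE 0.11, 95% interval 0.25 to 0.75, limma adjusted p = 0.0314). Its second probe set rose by 0.60 (limma adjusted p = 0.0156). When arrays were left out one at a time, the Psmd4 difference stayed between 0.44 and 0.55, and it passed in 4 of the 10 fits.

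Of the 45 members, 14 reached an unadjusted p under 0.05 in the higher direction and 1 in the lower, against 10.4% and 11% of all probe sets. The groups did not overlap for 8 members, all higher, against 3.79% of probe sets higher and 3.59% lower: Psmb5, Psmb6, Psmc3, Psmc6, Psmd4, Psmd6, Psme4 and Psmg1. Apart from Psmd4, none of these passed the adjusted threshold.

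Psmd6, a scaffold subunit of the lid of the regulatory particle, read 11425.1, 8790.2, 10152.1, 9443.7 and 10744.9 in WT and 13550.1, 14493.9, 12965.4, 12866.1 and 12887.0 in GSL30 arrays. All GSL30 arrays exceeded all WT arrays, with a difference of 0.40 (limma adjusted p = 0.0554), but its second probe set gave -0.07. The ATPase Psmc3 read 6090.5, 5636.3, 6223.1, 5562.1 and 6395.7 in WT and 7177.4, 8296.9, 8259.9, 8443.0 and 7041.2 in GSL30 arrays, a difference of 0.39 (limma adjusted p = 0.0584). Its lowest GSL30 array was above its highest WT array. The base scaffold Psmd2 had the largest difference of the regulatory members, at 0.53, from 10363.1, 7417.3, 9393.8, 7689.1 and 9270.1 in WT to 10463.0, 13619.8, 19111.0, 10157.4 and 11601.3 in GSL30. One GSL30 array stood far above the other 4, the groups overlapped, and the limma adjusted p was 0.11.

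Among the catalytic core subunits, Psmb5 and Psmb6 had higher means and the immune forms Psmb8 and Psmb9 lower means in GSL30, and none of the 4 passed. Psmb5, which carries the chymotrypsin-like site, read 7859.6, 7177.6, 8112.1, 7568.3 and 7030.1 in WT and 9687.2, 12395.0, 9108.0, 9387.0 and 10192.8 in GSL30 arrays (difference 0.42, limma adjusted p = 0.0581). Psmb6, which carries the caspase-like site, read 5926.6, 5938.1, 5829.2, 5439.0 and 5461.4 in WT and 6689.1, 7542.9, 8417.1, 6959.4 and 7007.7 in GSL30 arrays (difference 0.35, limma adjusted p = 0.0772). Neither gene overlapped between the groups. Psmb7, which carries the trypsin-like site, differed by 0.09 and overlapped.

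The immune forms were not shifted together. Psmb9 read 870.5, 1304.3, 1116.4, 765.5 and 1320.6 in WT and 712.2, 654.1, 470.5, 1243.8 and 831.2 in GSL30 arrays (difference -0.47, limma adjusted p = 0.259, the smallest of the 3). Psmb8 read 1392.3, 1366.4, 1490.4, 1143.7 and 2085.3 in WT and 986.7, 1065.4, 874.6, 1680.0 and 1202.3 in GSL30 arrays, a difference of -0.36. The same GSL30 array, number 4, gave the highest Psmb8, Psmb9 and Psmb10 reading of its group, and for all 3 genes the groups overlapped. Psmb10 differed by 0.28. That array also had the highest summed level of lymphocyte markers among the GSL30 arrays, 11737.7 against 4484.3 to 6933.9 in the other 4, and the part of these cells in its readings was not tested.

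The alpha subunit Psma7 differed by 0.48 (limma adjusted p = 0.0754), with 4805.9, 3972.1, 3518.5, 4025.0 and 3402.2 in WT and 7024.1, 4539.3, 5693.4, 4860.0 and 5698.7 in GSL30 arrays. The ranges overlapped through 1 GSL30 array, and its second probe set gave 0.10. Psme4, an activator that opens the core without ubiquitin, read 6554.9, 5938.9, 7493.2, 6578.5 and 7565.2 in WT and 8436.6, 8637.3, 9021.3, 8485.5 and 9196.3 in GSL30 arrays (difference 0.36, limma adjusted p = 0.0741). Psmg2, a chaperone that helps assemble the alpha ring, was the member furthest in the other direction, at -0.64 (limma adjusted p = 0.0764). It read 1514.5, 1567.4, 1204.9, 1077.1 and 991.0 in WT and 616.5, 1048.6, 832.7, 971.5 and 569.5 in GSL30 arrays, with overlap. The second probe set of Psmg2 gave -0.02. Psmd10, Psmd8 and Psme1 differed by 0.01, 0.07 and 0.11.

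**Figure D1:**
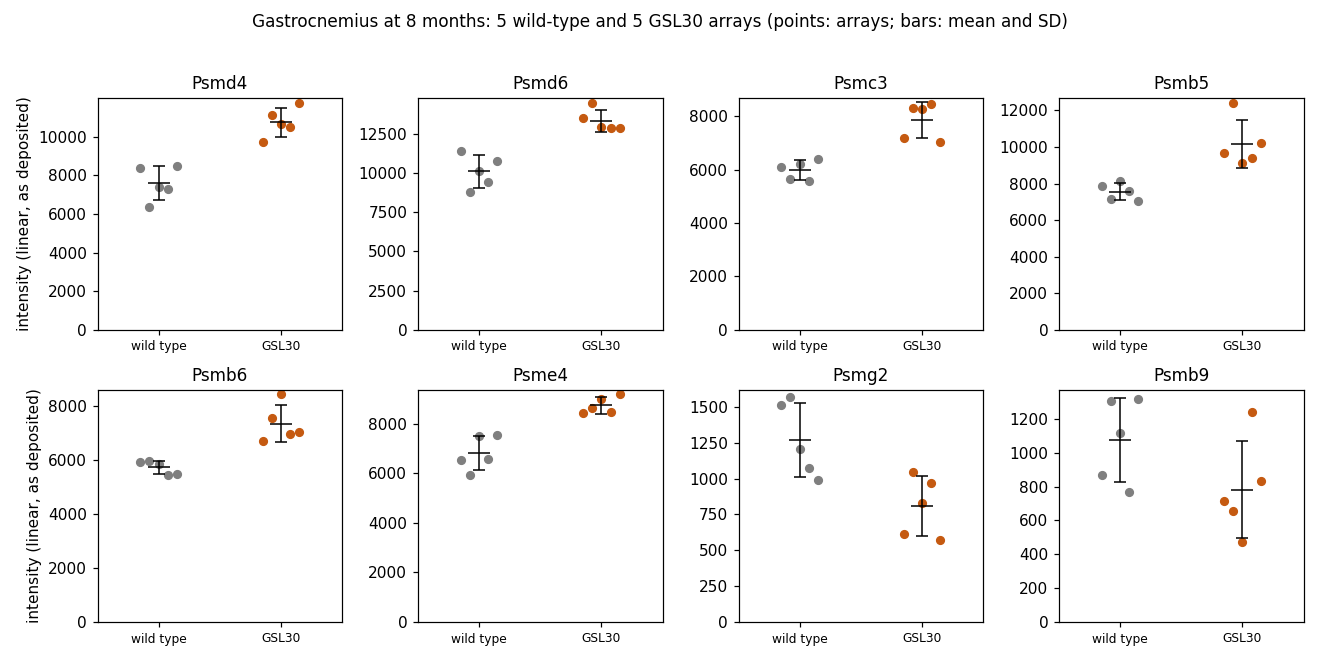
Intensity (linear, as deposited) of 8 proteasome genes in gastrocnemius at 8 months, with 1 point per array and bars for the mean and SD of 5 WT and 5 GSL30 arrays. The points of Psmd4, Psmd6, Psmc3, Psmb5, Psmb6 and Psme4 do not overlap between the groups, while those of Psmg2 and Psmb9 do, with lower means in GSL30.

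Genes that feed the proteasome were taken from a list of 13, of which 7 had a probe set. In GSL30 muscle 2 of these 7 passed, both higher: Nploc4, a cofactor of the unfoldase that extracts tagged proteins, by 0.68 (limma adjusted p = 0.0197), and Ubqln4, a shuttle that carries tagged proteins to the proteasome, by 0.51 (limma adjusted p = 0.0373). None of 10 other partners of the proteasome, 5 muscle ubiquitin ligases, 10 antigen presentation genes or 11 interferon-response genes passed. Nfe2l1, the transcription factor known to drive proteasome genes, differed by 0.45 (limma adjusted p = 0.0716).

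Markers of other cells moved in the same comparison. Of 7 endothelial markers all 7 were lower and 4 passed (Pecam1, Cdh5, Esam and Tie1), with a summed level of 13712.5 to 16458 in WT and 8674.6 to 10469.7 in GSL30 arrays. Of 8 tested hepatocyte markers all 8 were lower and 3 passed (Alb, Apoa2 and Ttr), with a summed level of 16068.8 to 39897.5 in WT and 9390.7 to 16128.9 in GSL30 arrays. None of these was at 0: the lowest group mean among the tested ones was 157, for Ttr in GSL30. The hepatocyte mean did not overlap between the groups (9.30 to 11.05 in WT and 8.12 to 9.14 in GSL30 arrays). A fit with it as covariate therefore cannot separate it from the genotype. With the hepatocyte mean as a limma covariate no member and no other probe set passed (5 members and 2392 probe sets had an unadjusted p under 0.05), and Psmd4 differed by 0.40. The median difference of the regulatory members was then 0.25, and it was 0.28 without the WT arrays of high hepatocyte level. Fibroblast and adipocyte markers were also lower (7 of 7, with Fmod passing, and 3 of 3), with summed levels of 64235.7 to 97831.6 and 38141.6 to 68157.5 in WT and 68744.6 to 79014.4 and 29160 to 48009.4 in GSL30 arrays, while 8 of 10 skeletal muscle markers were above 0 and none of these 8 passed. The only skeletal muscle marker that passed was lower: Myh2, a fast myosin heavy chain, with a difference of -0.65 (limma adjusted p = 0.0282). The part of the endothelial, fibroblast and adipocyte markers was not tested.

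In KO gastrocnemius at 3 months no member passed, against 0.147% of all probe sets in either direction (0.0442% higher and 0.103% lower). An unadjusted p under 0.05 was reached by 2 members higher and 1 lower, against 6.96% and 4.42% of probe sets. A difference above 0 was found for 31 of the 45 members, against 56.5% of all probe sets, with medians of 0.12 in the core, 0.11 in the regulatory part and 0.05 over all probe sets. Without the arrays of high hepatocyte level both of these medians were 0.03. Members whose groups did not overlap were Psma6, Psmb7, Psmc3, Psmd4, Psmd6 and Psmd13 in the higher direction (6 members, against 7.26% of probe sets) and Psmd8 and Psmd9 in the lower (2 members, against 2.72%).

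Psmd8, a non-ATPase subunit of the lid, stood apart in size. It read 11155.4, 10260.5, 12912.9, 12175.8 and 11087.7 in the 5 WT arrays and 6440.3, 6305.7 and 8522.8 in the 3 KO arrays. The highest KO array was below the lowest WT array. The difference was -0.71 (SE 0.15, 95% interval -1.04 to -0.37), with a limma unadjusted p of 0.000987 and an adjusted p of 0.174. With all 34 arrays in one limma fit the same difference had an adjusted p of 0.00702. With 1 array left out it lay between -0.84 and -0.63. It was -0.70 without the arrays of high hepatocyte level, where only WT arrays 3 and 5 and KO arrays 2 and 3 remained. Psmd8 did not pass in any of these fits with arrays left out.

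Psmd8 has 1 probe set. In tibialis it read 7566.9, 7960.8, 5155.4 and 6903.6 in WT and 5890.3, 5927.8, 6153.6 and 4201.4 in KO arrays (difference -0.31), with overlap. In liver it read 6958.3, 6518.0, 5741.9 and 6595.3 in WT and 5798.5, 6495.7, 5629.2 and 5735.5 in KO arrays (difference -0.12), again with overlap. The GSL30 arrays, at 10937.9, 11523.0, 12320.2, 10777.2 and 12904.1, overlapped with their WT arrays at 8863.7 to 12814.2, and 1 of them lay above the highest WT array. The GSL30 effect exceeded the KO effect in gastrocnemius by 0.78 (SE 0.18, limma adjusted p = 0.0331), the only member for which that difference of effects passed, against 2.3% of all probe sets. This call was lost without any 1 of WT arrays 3 and 4 and KO arrays 1 and 2 of 3 months and WT arrays 3 and 5 and GSL30 arrays 2, 3 and 5 of 8 months, with values of 0.70 to 0.92 over all leave-one-out fits. It was also lost without the arrays of high hepatocyte level (0.76, limma adjusted p = 0.273). Psmd8 and Gys1 both lie on chromosome 7, as do the members Psma1, Psmc4 and Psmd13. Those members differed by -0.14, 0.14 and 0.37 in KO gastrocnemius. Distances to Gys1 were not compared, and the part of the shared chromosome was not tested.

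**Figure D2:**
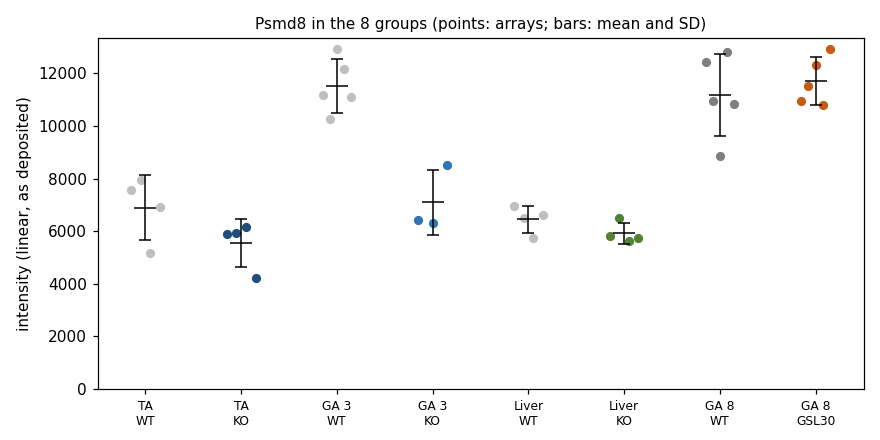
Intensity (linear, as deposited) of Psmd8 in the 8 groups, with 1 point per array and bars for the mean and SD. The 3 KO gastrocnemius arrays (6305.7 to 8522.8) lie below the 5 WT gastrocnemius arrays of the same age (10260.5 to 12912.9), and the other groups overlap with their WT arrays.

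In the higher direction the largest difference in KO gastrocnemius was that of Psmd13, a lid subunit, with 1520.0, 1706.9, 1570.8, 1668.8 and 1731.9 in WT and 2325.3, 1940.3 and 2147.7 in KO arrays (difference 0.37, limma adjusted p = 0.336). Psmc3 read 5205.9, 5535.6, 6462.2, 5288.3 and 5395.2 in WT and 7380.4, 6611.7 and 6716.6 in KO arrays (difference 0.31, limma adjusted p = 0.407). Psmd9, an assembly chaperone of the ATPase ring, read 854.6, 1088.6, 776.9, 874.8 and 810.0 in WT and 754.8, 735.1 and 722.1 in KO arrays (difference -0.23). The KO arrays of each of these 3 genes lay wholly to one side of the WT arrays, by a narrow margin for Psmc3 and Psmd9. All 7 ubiquitin supply and delivery genes had a difference above 0 (median 0.30) and none passed. All 11 hepatocyte markers were lower in KO (median -1.35, summed level 62880 to 801464 in WT and 60098.7 to 185682 in KO arrays) and none passed. Endothelial markers were above 0 for 6 of 7 without passing. Their summed level was 9073.3 to 11432.1 in WT and 14004.1 to 15655.3 in KO arrays, and their part was not tested. Skeletal muscle markers were below 0 for 8 of 10 (median -0.24), macrophage markers for 7 of 9 (-0.18) and fibroblast markers for 6 of 7 (-0.07). Adipocyte markers were above 0 for 3 of 3 (median 0.53). None of these markers passed, and their part was not tested either.

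In KO tibialis no member passed, against 1.4% of all probe sets in either direction (0.663% higher and 0.737% lower), and the members were spread evenly around 0. Differences above 0 were found for 24 of 45 members, against 56.7% of all probe sets, and the medians were 0.02 in the core, 0.01 in the regulatory part and 0.04 over all probe sets. Unadjusted p-values under 0.05 were reached by 1 member higher and 3 lower, against 8.44% and 6.53% of probe sets. Groups that did not overlap were found for Psmb9 and Psmd6 in the higher direction (5.2% of probe sets) and for Psma2, Psma3, Psme4 and Psmg1 in the lower (4.88%).

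Psmb9 had the largest difference, 0.55 (limma adjusted p = 0.16), with 295.5, 402.5, 464.6 and 358.9 in WT and 547.6, 472.9, 564.6 and 740.9 in KO arrays. The highest WT and the lowest KO array were close, 464.6 and 472.9. The other immune forms differed by 0.26 (Psmb8) and 0.02 (Psmb10), with overlap, and 9 of 10 antigen presentation genes had a difference above 0 (median 0.29) without passing. All 7 endothelial markers were also above 0 (median 0.48, summed level 11429.9 to 13484.5 in WT and 15634.5 to 19033.8 in KO arrays), none passed, and their part was not tested. Fibroblast markers were below 0 for 5 of 7 (median -0.23, summed level 68468.5 to 88146.9 in WT and 63941.2 to 73604.3 in KO arrays), and Fmod passed, lower, with a difference of -0.91 (limma adjusted p = 0.0293). Their part was not tested either.

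Psme4 read 8740.4, 8199.7, 8125.5 and 8336.0 in WT and 7046.5, 6554.8, 6939.1 and 6597.0 in KO tibialis (difference -0.30, limma adjusted p = 0.178). Psmg1, a partner of Psmg2 in alpha ring assembly, read 1371.0, 1395.4, 1352.0 and 1302.9 in WT and 1183.2, 1172.4, 1123.6 and 984.5 in KO (difference -0.27, limma adjusted p = 0.25). The alpha subunit Psma2 read 6453.8, 7253.9, 6649.1 and 6798.8 in WT and 5882.7, 5826.9, 5955.8 and 5701.5 in KO (difference -0.21, limma adjusted p = 0.325). All 4 KO arrays of each of these 3 genes lay below all 4 WT arrays, and none of the genes passed. Psmd6 read 10865.3, 11376.4, 10524.9 and 11387.3 in WT and 12306.1, 12005.4, 12324.1 and 12524.7 in KO, a difference of 0.15.

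In liver, where muscle glycogen synthase was dim in both groups, no member passed, against 0.00737% of all probe sets in either direction. A difference below 0 was found for 38 of 45 members, for 13 of 17 core and 19 of 20 regulatory members, and for 45% of all probe sets. The medians were -0.12 in the regulatory part, -0.05 in the core and 0.02 over all probe sets, and only Psmd13 was above 0 in the regulatory part. The mean log2 level of the regulatory genes was 11.78 to 11.86 in the 4 WT arrays and 11.66 to 11.73 in the 4 KO arrays. Single members showed little of this: 1 reached an unadjusted p under 0.05, lower (3.63% of probe sets), none higher (4.7%), and 2 did not overlap, both lower (2.41%, against 2.76% higher).

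Those 2 were Psme3 and Psmc4. Psme3, the nuclear activator of the core, read 846.7, 807.6, 929.9 and 842.6 in WT and 634.0, 707.4, 650.6 and 700.9 in KO liver (difference -0.33, limma adjusted p = 0.43). The second probe set of Psme3 gave -0.04, and its groups overlapped. The ATPase Psmc4 read 3261.1, 3306.3, 3570.6 and 3301.9 in WT and 3223.4, 3179.3, 2940.8 and 2920.2 in KO liver (difference -0.13). Its groups were separated by a small step, from 3223.4 to 3261.1. The largest positive difference was that of Psmb10, 0.47 (limma adjusted p = 0.603), with 689.1, 780.4, 1099.0 and 588.1 in WT and 1514.3, 824.3, 948.2 and 1180.0 in KO arrays, which overlapped. Psmd9 differed by -0.29, and 1 KO array, at 1294.5, lay far below the other 3 at 2145.2 to 2683.4.

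**Figure D3:**
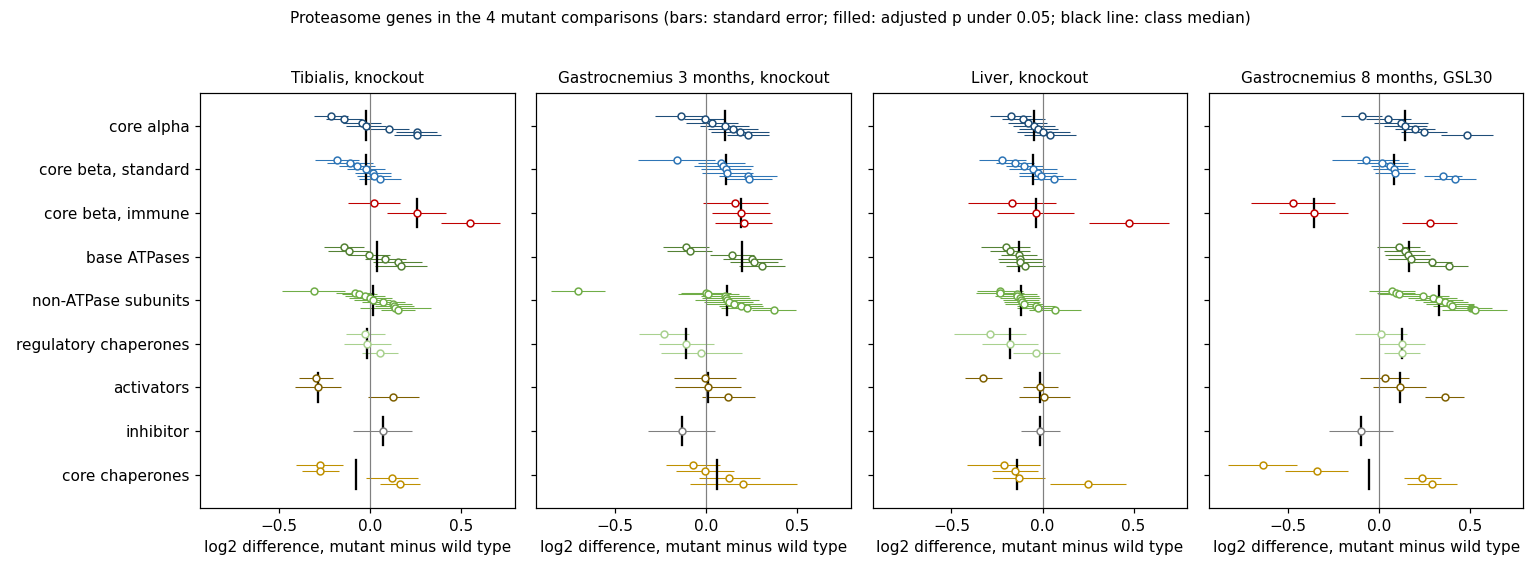
Log2 difference, mutant minus WT, of the 45 tested proteasome genes in the 4 mutant comparisons, by class of subunit, with bars for the standard error, black lines for the class median and filled points for adjusted p under 0.05. One point, Psmd4 in GSL30 gastrocnemius, is filled, and the non-ATPase subunits lie to the right of 0 in GSL30 (median 0.33) and, apart from Psmd13, to the left of 0 in liver.

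The arrays bounded most changes of the members. The 95% interval of the difference lay within 1.5-fold in either direction for 42 of 45 members in tibialis, 38 in KO gastrocnemius, 40 in liver and 28 in GSL30 gastrocnemius. It lay within 2-fold for 45, 44, 45 and 44 of them. For 18 members a second probe set was tested, and its difference had the sign of the first for 12 in tibialis, 15 in KO gastrocnemius, 12 in liver and 10 in GSL30 gastrocnemius. The KO effects of gastrocnemius and tibialis did not differ beyond the threshold for any member (limma, 3 unadjusted p under 0.05 higher and 1 lower; 0.0147% of all probe sets passed). Nor did the liver effect and the mean muscle effect (1 higher and 4 lower unadjusted; 0.685% of probe sets passed).

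The WT arrays compared tissues and ages, in one limma fit over 18 arrays. Each tissue and age has its own project code in the labels, so these contrasts and the project cannot be told apart. The labels also give 10 µg of RNA for liver and 5 µg for muscle arrays, so tissue and RNA amount coincide between liver and muscle. Against tibialis, liver was higher in 13 members and lower in 14, or 27 of 45, against 68.2% of all probe sets (26.1% higher and 42.2% lower). The median was -0.02 over the members and -0.23 over all probe sets. Of the 11 non-ATPase subunits 6 were lower, 1 was higher (Psmd4) and 10 were below 0.

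The assembly chaperone Psmd9 read 816.3, 759.8, 967.2 and 863.0 in WT tibialis and 2459.2, 2648.3, 2295.7 and 2639.4 in WT liver, which was higher by 1.51 (limma adjusted p = 3.89e-09). The inhibitor Psmf1 read 653.5, 668.4, 849.4 and 817.3 in tibialis and 1621.3, 1603.0, 1588.6 and 1679.3 in liver, higher by 1.08 (limma adjusted p = 6.75e-06). Neither gene overlapped between the tissues. Psmb9 was higher in liver by 1.14, from 295.5 to 464.6 in tibialis to 573.3 to 1150.8 in liver, and Psmb8 by 0.69.

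The activator Psme4 went the other way, with 8740.4, 8199.7, 8125.5 and 8336.0 in tibialis and 3370.8, 3349.6, 3295.3 and 3335.2 in liver (difference -1.31, limma adjusted p = 8.75e-09). Psmd6 read 10865.3, 11376.4, 10524.9 and 11387.3 in tibialis and 5470.4, 5627.5, 5102.3 and 5956.8 in liver (difference -0.99, limma adjusted p = 7.36e-07). Psmd7, a lid subunit, differed by -0.74. No reading of these 3 genes in liver reached the lowest in tibialis. The standard catalytic subunits Psmb5 and Psmb6 differed by -0.02 and -0.10, while Psmb7 was lower in liver, at 16066.7 to 19066.6 against 25422.9 to 30994.7 (difference -0.70).

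Between WT gastrocnemius and WT tibialis at 3 months, 4 members were higher (Psmd8, Psmc5, Psmd4 and Psmc6) and 6 lower (Psmg1, Psme1, Psme4, Psma3, Psmb6 and Psmb7), or 10 of 45, against 33.1% of all probe sets (15.7% higher and 17.3% lower). Psmd8 differed most, by 0.75 (limma adjusted p = 0.000521), from 5155.4 to 7960.8 in tibialis to 10260.5 to 12912.9 in gastrocnemius. The ATPase Psmc5 read 2269.5, 3162.7, 2767.5 and 2924.5 in tibialis and 4350.8, 4787.1, 4751.0, 3209.6 and 3966.0 in gastrocnemius (difference 0.59, limma adjusted p = 0.00503). Psmg1 was the lowest in gastrocnemius, with a difference of -0.50, followed by Psme1 at -0.42 and Psme4 at -0.41. All 11 hepatocyte markers passed higher in these gastrocnemius arrays, and their part was not tested.

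With age, WT gastrocnemius at 8 months was higher than at 3 months in 5 members and lower in none, against 6.19% and 5.24% of all probe sets, and 3 of the 5 were the immune forms. Psmb8 read 574.5, 666.4, 521.0, 820.2 and 644.8 at 3 months and 1392.3, 1366.4, 1490.4, 1143.7 and 2085.3 at 8 months, a rise of 1.14 (SE 0.16, limma adjusted p = 0.000257). Psmb9 read 495.7, 532.7, 405.5, 512.1 and 318.5 at 3 months and 870.5, 1304.3, 1116.4, 765.5 and 1320.6 at 8 months, a rise of 1.15 (SE 0.20, limma adjusted p = 0.000957). No array of 3 months reached the lowest array of 8 months for either gene. Psmb10 read 605.6, 902.9, 792.7, 626.7 and 647.8 at 3 months and 942.0, 1172.0, 1122.6, 968.3 and 1135.3 at 8 months, a rise of 0.56 (limma adjusted p = 0.0231).

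The other 2 were the core chaperone Psmg4, by 0.69 (limma adjusted p = 0.00889), and Psmd13, by 0.48 (limma adjusted p = 0.00529). Psmg4 read 822.0, 851.5, 796.1, 874.4 and 711.6 at 3 months and 863.8, 1447.4, 1213.1, 1571.7 and 1766.9 at 8 months, with 1 array of 8 months inside the younger range. The standard forms replaced by the immune forms did not pass: Psmb5 differed by 0.13, Psmb6 by 0.06 and Psmb7 by 0.22. The lowest differences were those of Psmd9 (-0.26), Psma1 (-0.25) and Psmd7 (-0.24), which did not pass. Over all 45 members the median was 0.08, and 0.07 over all probe sets.

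Other lists moved in the same contrast. All 3 tested lymphocyte markers were higher (Cd79b, and Ptprc by 2.09 and Cd79a by 1.80), with a summed level over 8 measured markers of 1288.2 to 2029.5 at 3 months and 4839.5 to 8646.8 at 8 months. Macrophage markers passed higher for 5 of 9, with a summed level of 13597.6 to 16968 at 3 months and 21767.8 to 26043.9 at 8 months. Antigen presentation genes passed higher for 4 of 10 (Tap2, Tap1, Tapbp and Irf1), and interferon-response genes for 1 of 11. Endothelial, fibroblast and adipocyte markers passed higher for 4 of 7, 5 of 7 and 3 of 3, and hepatocyte markers lower for 10 of 11. The part of these cells in the immune forms was not tested.

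Without the arrays of high hepatocyte level Psmb8 (1.14, limma adjusted p = 0.0109) and Psmb9 (1.22, limma adjusted p = 0.0287) still passed, while Psmb10 (0.46), Psmg4 (0.62) and Psmd13 (0.48) did not. The hepatocyte mean still differed between the ages in the arrays kept. It was 12.95 and 11.79 in WT arrays 3 and 5 of 3 months. In WT arrays 1, 3 and 4 of 8 months it was 9.46, 9.30 and 9.30, so this fit cannot separate it from age. Psmb8 and Psmb9 passed in 10 of 10 fits that each left out 1 array. Psmb10 passed in 6 of 10, and lost the call without WT arrays 1 or 4 of 3 months or WT arrays 2 or 3 of 8 months.

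**Figure D4:**
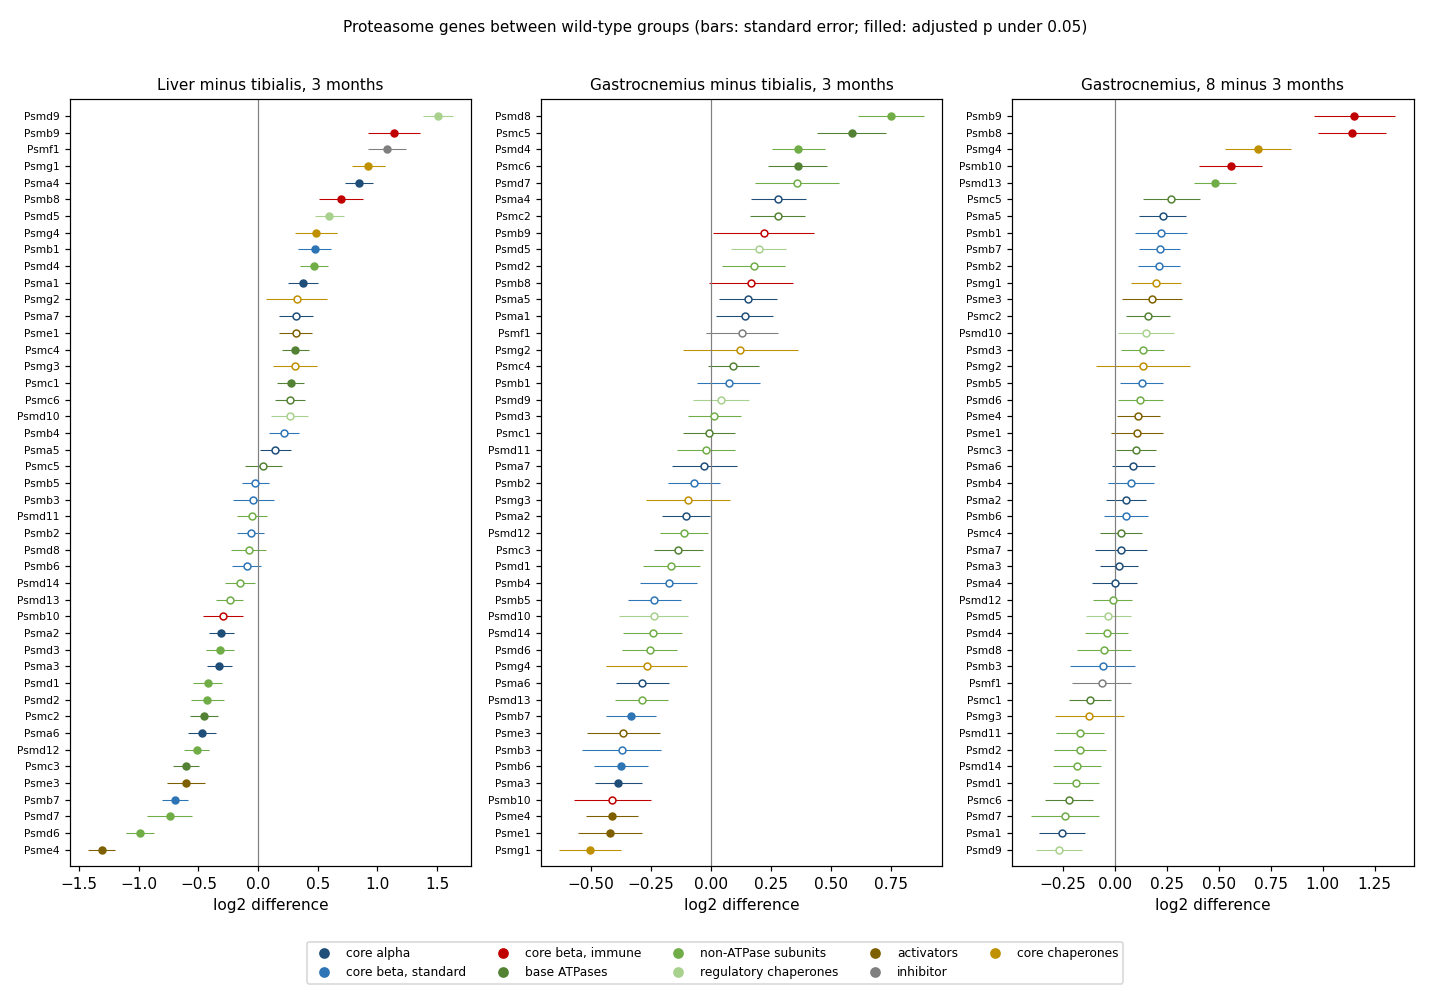
Log2 difference of the 45 tested proteasome genes between WT groups (liver minus tibialis, gastrocnemius minus tibialis and gastrocnemius at 8 minus 3 months), with bars for the standard error, colours for the class of subunit and filled points for adjusted p under 0.05. In the age contrast Psmb8 (1.14) and Psmb9 (1.15) lie to the right of all other members, and in the liver contrast Psmd9 (1.51) and Psme4 (-1.31) mark the ends.

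Over the 8 groups Psmb8 and Psmb9 had their lowest means in muscle of 3 months. Psmb8 averaged 565 ± 70 (SD, n = 4) in WT tibialis, 645 ± 113 (n = 5) in WT gastrocnemius of 3 months, 692 ± 141 (n = 4) in KO tibialis and 745 ± 56 (n = 3) in KO gastrocnemius. It averaged 957 ± 230 (n = 4) in WT liver and 941 ± 283 (n = 4) in KO liver, and 1162 ± 313 (n = 5) in GSL30 and 1496 ± 353 (n = 5) in WT gastrocnemius of 8 months. Neighbours in this order overlapped. Psmb9 followed a like order, from 380 ± 71.3 (n = 4) in WT tibialis to 1075 ± 251 (n = 5) in WT gastrocnemius of 8 months.

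**Figure D5:**
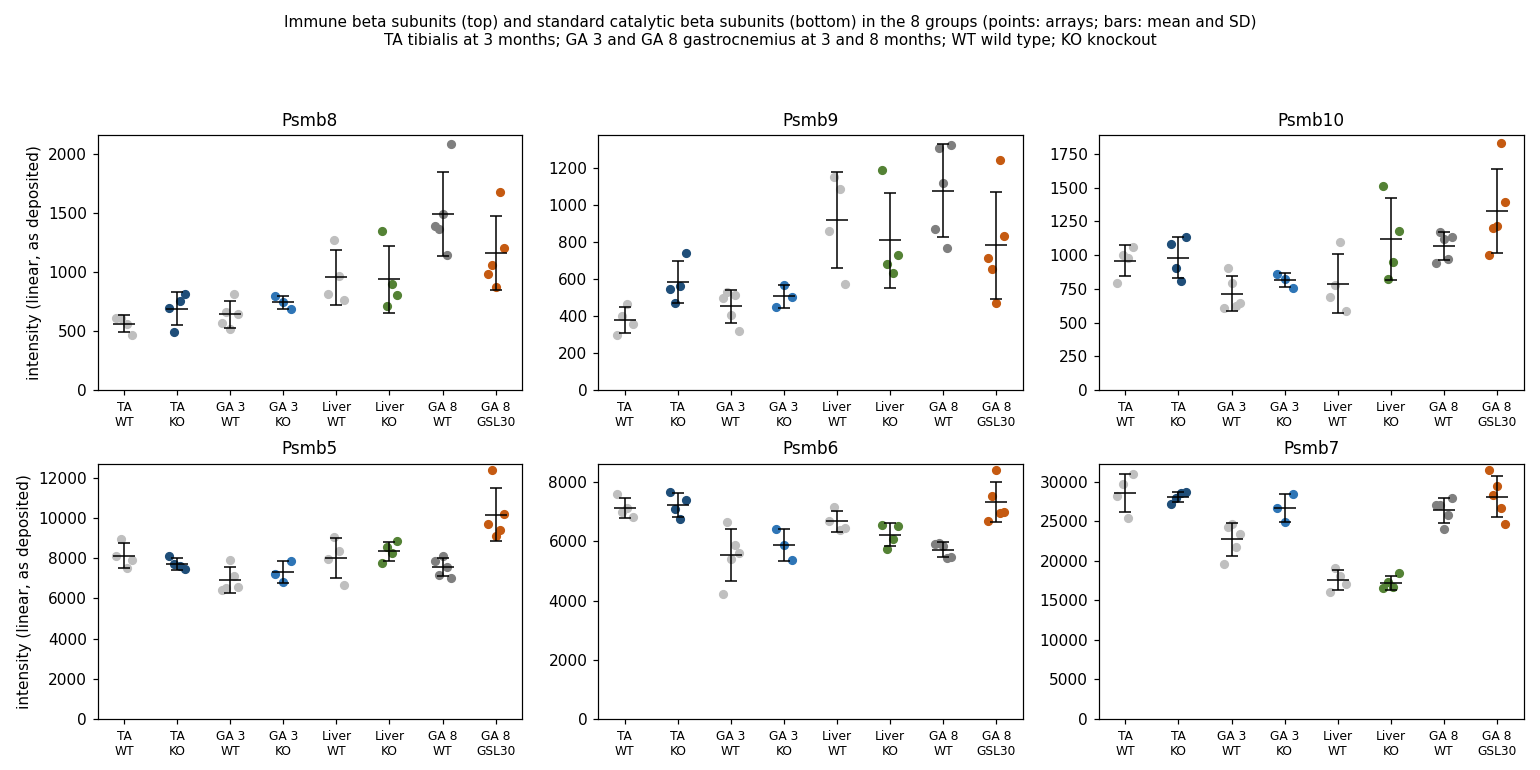
Intensity (linear, as deposited) of the immune beta subunits Psmb8, Psmb9 and Psmb10 (top) and of the standard catalytic subunits Psmb5, Psmb6 and Psmb7 (bottom) in the 8 groups, with 1 point per array and bars for the mean and SD. Psmb8 and Psmb9 are highest in WT gastrocnemius of 8 months (means of 1496 and 1075), and Psmb5 is highest in GSL30 gastrocnemius.

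Members of the complex varied together only loosely from array to array. After each group's mean was removed, the median Pearson correlation over the 34 arrays was 0.12 between core members, 0.14 between regulatory members and 0.15 between both parts, against 0.008 over all pairs of 8323 genes. It was 0.68 among the 3 immune forms (0.74 for Psmb8 and Psmb9), 0.20 among the other 14 core members and 0.02 between the immune forms and these. These correlations are descriptions: all pairs share the same arrays. Over the 8 group means, the genes most like Psmb8 were Cap1 (r = 0.94), Fasn (0.93), Cadm4 (0.92), Psmb9 (0.92) and Polg (0.92). They are the top of a ranking of 8323 genes over only 8 means, and describe these groups only. The peptide transporter genes Tap2 and Tap1 stood at 0.85 (rank 54) and 0.69 (rank 351). Lower values were found for Psmb10 (0.53, rank 866), the peptide loading gene Tapbp (0.52, rank 896) and B2m (0.50, rank 1016), the light chain of class I molecules. Values were near 0 for the activator Psme1 (0.09) and the class I genes H2-D1 (0.08) and H2-K1 (0.08).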

How the data were processed

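Gene expression was measured on 34 arrays in 8 groups taken from the labels. The numbers of arrays within a group follow accession order and are names only. The deposited values are intensities on a linear scale, scaled to trimmed means of 1000.34 to 1000.49 as read from the values themselves. Which program turned probes into probe sets was not stated in the labels. Negative values were replaced by 0, a pseudocount of 50 was added before log2, and no normalization followed. Control probe sets (64) and the dimmest 40% of each comparison were left out. Separate limma 3.58.1 models (lmFit and eBayes, R 4.3.3) were fitted to the arrays of each mutant comparison, and one to the 18 WT arrays, with p-values adjusted by Benjamini-Hochberg over 13576 probe sets. The script was tested on simulated data. Members were considered for naming if they passed, were catalytic beta subunits or were among the 2 highest or lowest of a part. So were members that did not overlap between groups or were among the 3 highest or lowest of a WT contrast. Not all of them are described in every comparison. For 27 of the 48 matched genes there was 1 probe set. Array medians ran from 296 to 440.3, and the number of arrays limits the precision. Members and gene lists were chosen with earlier results of these data known. Alternatives covered scaling, pseudocount, dim filter, variance model, arrays left out, the hepatocyte level and the next brightest probe set.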

Additional observations from a re-analysis of the deposited data

Results flagged for a closer look

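Each named member was checked in each group of at least 4 arrays of its comparison, which gave 109 checks. In 5 of them 1 array stood apart from the rest of its group by more than the group's range allows at the 95% level. Chance alone would mark about 1 in 20 independent checks, but these checks share arrays. Psmd8 in KO tibialis array 4 read 4201.4, with 5890.3 as the nearest of the other 3. Psmb3 and Psma1 in WT gastrocnemius array 2 of 3 months read 8732.7 and 4661.4, with 5701.9 and 3715.1 as the nearest. The same array had the highest hepatocyte level of its group (mean 15.7 on the log2 scale) and a summed level of skeletal muscle markers of 1696830, against 363644 to 506390 in the other 4. Psmc3 in WT gastrocnemius array 3 of 3 months read 6462.2, with 5535.6 as the nearest. Psmc4 in WT liver array 3 read 3570.6, with 3306.3 as the nearest.

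The effects on Psmd8 differed between the 2 gastrocnemius comparisons: the GSL30 effect was 0.78 above the KO effect (limma adjusted p = 0.0331). The comparisons also differ in age and project, and these cannot be told apart from the genotype.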

How the results depend on the processing

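Of 281 checks of counts and medians 248 stayed the same. Counts were judged by their ratio to the reported count, and medians by a move under 1 SD between arrays. Of 1241 checks of single members 1140 kept the sign and the side of the threshold. Their size was not checked: Psmb1 in KO gastrocnemius went from 0.23 to 0.0085 with the next brightest probe set. In GSL30 gastrocnemius 1 member passed in the reported fit, 4 after quantile normalization, with a pseudocount of 200 and with array weights, 7 with a trended and robust variance, 8 with the filter at the 60th percentile (7 higher and Psmg2 lower) and 10 with all 34 arrays in one fit. None passed after scaling to a common median, with no filter, with the hepatocyte level as covariate or without the arrays of high hepatocyte level, and 0 to 1 passed with 1 array left out (0 without WT 2, 3 or 4 or GSL30 2, 3 or 5). Over all settings but the left-out arrays Psmd4 ranged from 0.40 to 0.60, with adjusted p from 0.000756 to 0.29, and passed in 8 of 12. In KO gastrocnemius 1 member (Psmd8, lower) passed with all 34 arrays in one fit. The common median raised the WT gastrocnemius minus tibialis count from 10 to 17, and moved the median of all probe sets there from -0.03 to -0.16. The GSL30 minus KO difference of effects lost its 1 call (count 0) under the common median and with no filter, and Psmd8 lost it also without the arrays of high hepatocyte level (0.76, adjusted p = 0.273). The 8 minus 3 months count was 2 without the arrays of high hepatocyte level, an alternative chosen, like the left-out arrays of the WT contrasts and of Psmd8, after seeing the data.

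Medians moved by more than 1 SD between arrays in these settings. In tibialis the regulatory median was 0.051 after quantile normalization, -0.078 with the common median and -0.17 with the next brightest probe set (8 genes), and the core median was -0.070 with the common median and -0.031 to 0.026 with 1 array left out. In KO gastrocnemius the core and regulatory medians were 0.025 and 0.031 without the arrays of high hepatocyte level, and the regulatory one was 0.19 with the next probe set. In liver the regulatory median was -0.17 with the common median, -0.22 with the next probe set and -0.16 to -0.10 with 1 array left out. In GSL30 it was 0.12 with the next probe set. The causes were not tested.

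Some members changed sign. Of these only Psmd6 in GSL30 passed in any setting, higher in 6 of 12. In tibialis these were Psmb7 (0.017, quantile), Psmb10 (-0.033, quantile, and -0.065, common median), Psmb6 (-0.070, common median, and -0.0017, array weights) and Psmc6 (-0.28, next probe set), with left-out ranges of -0.060 to 0.11 for Psmb10, -0.011 to 0.050 for Psmb6 and -0.076 to 0.019 for Psmb7. In KO gastrocnemius they were Psme1 (0.051, common median, 0.061, hepatocyte covariate, and -0.20 to 0.14 with 1 array left out) and Psmb3 (0.029, covariate, and 0.025, next probe set). In liver they were Psme1 (-0.039, common median, and -0.081 to 0.13 with 1 array left out), Psmb4 (0.035) and Psmd9 (0.014) with the next probe set, and by left-out arrays Psmb7 (-0.068 to 0.014), Psmb8 (-0.22 to 0.10), Psmb5 (-0.019 to 0.13) and Psmd2 (-0.095 to 0.032). In GSL30 they were Psmd10 (-0.043, quantile, -0.032, common median, -0.17, covariate, -0.021, high hepatocyte arrays out, and -0.10 to 0.059 with 1 array left out), Psmd8 (-0.0082 to 0.12 with 1 array left out) and Psmd6 (-0.074, next probe set). No paired analysis was possible because the labels give no replicate numbers that groups share.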
